A study of Arabidopsis thaliana with 6 samples.

Results

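Transcripts of AMY3C-EY plants 6 h after 17-β-estradiol were compared with those of untreated AMY3C-EY plants, using 2 of the 6 Arabidopsis thaliana arrays of the study. The 6 h plants had 20 µM estradiol painted onto their meristems, and the 0 h plants were left unpainted. Both groups were 21 days old and carried XVE, an estradiol-activated transcription factor, together with the construct AMY3C-EY. What this construct encodes, the promoter that drives XVE, and the number of transgenic lines or clones are not given in the sources used here. RNA was taken from shoot apices with juvenile leaves of 30 pooled plants, and each pool was read on 1 array. The pair lay on the same slide, together with arrays of estradiol-treated plants at 1 h and 3 h. A second slide held XVE plants without the construct, 6 h after estradiol, and AMY3C-EY plants 6 h after the solvent DMSO. Values from those 4 arrays are given beside the pair, and those of the second slide also carry any difference between slides.

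With 1 array a side there is no replicate and no test, and a gene is counted as higher or lower where its signals were at least 2-fold apart. A level is the log2 signal with the array's 75th percentile set to 0, and a difference is the 6 h level minus the 0 h level. The error printed after ± is the scanner software's error of the spots carried to the difference (SE from the software, n = 1 array a side), so it leaves out the spread between plants. Its median over genes was 0.20. Estradiol, painting and 6 h of elapsed time all separate the groups and cannot be told apart in this pair. The hour of harvest is not given. In RNA of whole apices, fewer cells of a type and less RNA per cell cannot be told apart either.

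The circadian clock of plants is a loop of transcriptional repressors. The MYB factors CCA1 and LHY accumulate around dawn, the PRR repressors follow one another through the day, and an evening complex of ELF3, ELF4 and LUX acts at dusk. Leaf starch is built by day and degraded by night, and many genes of both routes are under clock control. Jasmonate is an oxygenated fatty acid made after wounding or touch, and abscisic acid is a hormone of drought and cold responses. AMY3, whose name the construct bears, encodes an α-amylase of the plastid.

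Of 43603 probes, 30656 (70.3%) were well above background on both arrays, and they covered 19230 named genes, of which 5267 had several probes. At 6 h, signals at least 2-fold above those at 0 h were found for 484 genes (2.52%), and at least 2-fold below for 531 (2.76%). At least 4-fold apart were 74 genes (0.385%) on the higher side and 28 (0.146%) on the lower side. The median gene difference was -0.06, and the 5th and 95th percentiles were -0.80 and 0.74. By probes the counts were 846 higher (2.76%) and 1019 lower (3.32%). Of the called genes with several probes, 53 of 80 higher and 24 of 61 lower genes had every probe at least 2-fold apart, and in none did a probe fall on the other side of 0. Lower calls were more frequent among dim genes: of the 4808 genes with the lowest mean level 263 (5.47%) were lower and 143 (2.97%) higher, against 81 (1.68%) and 91 (1.89%) of the 4808 brightest. Under the normexp background correction, which compresses dim signals, 257 genes were higher and 222 lower.

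**Figure D1:**
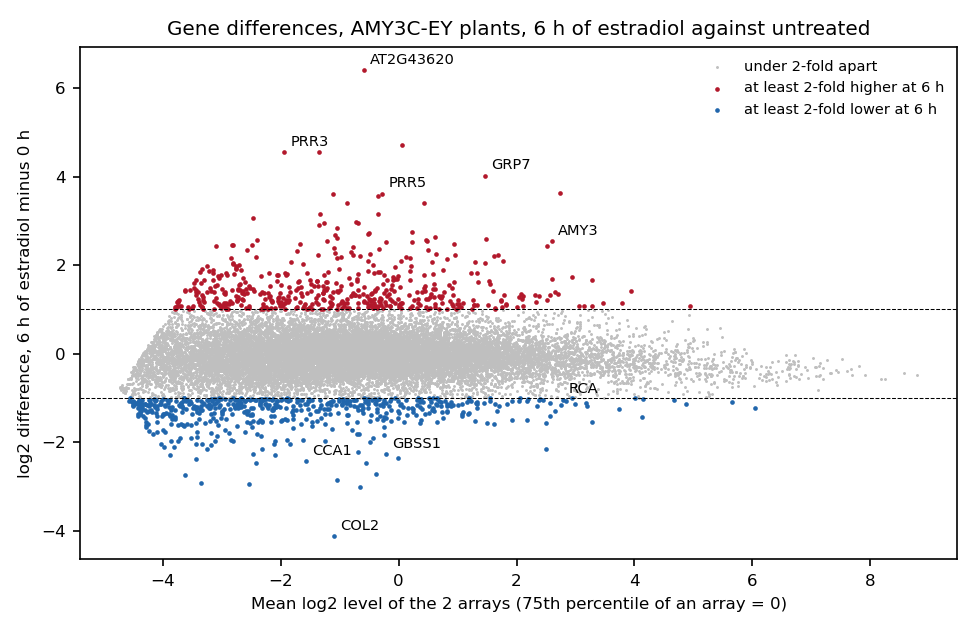
Each point is 1 of the 19230 named genes, with its mean log2 level of the 6 h and 0 h arrays on the x axis and the 6 h minus 0 h difference (log2) on the y axis. Genes at least 2-fold higher (484) or lower (531) at 6 h are coloured, and points of some genes described in the text are named.

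The tissue is labelled as shoot apical meristem and juvenile leaves, while the extraction protocol speaks of leaves only, and it was set against marker genes. Of 10 shoot meristem genes, 8 were well above background on both arrays, while WUS and CUC1 were not on any of the 6 arrays. All 5 leaf markers were. The log2 summed level of the leaf markers was 6.67 at 6 h and 7.20 at 0 h, and that of the meristem genes was 2.13 and 2.02. All 5 leaf markers also belong to the photosynthesis list described below, so the shift of that list is not separate from theirs. Markers of other cells gave 2.25 at 6 h and 2.50 at 0 h for 12 stomatal lineage genes, 3.16 and 3.41 for 12 trichome genes, 2.31 and 2.29 for 12 vascular genes, and 5.43 and 5.73 for 12 root genes. The 11 floral organ genes gave 1.44 at 6 h and 1.03 at 0 h, with SEP2 and SHP2 dim on all 6 arrays, and the 12 anther and pollen genes 2.34 and 2.43, with MS2, AMS, TDF1, DYT1 and QRT3 dim on all 6. In these sums the level of a gene averaged all its probes, dim ones included. On probes well above background on both arrays alone, the floral gene SEP3 was bright, at 6.94 at 6 h and 7.24 at 0 h. Its levels on that measure lie above the floral sums. The root hair gene COBL9 was bright too, at 5.34 and 5.65. The part of these shifts in the results was not tested.

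AMY3 stood 30th among the genes farthest above 0 h. It was at 3.87 at 6 h, against 1.33 at 0 h, a difference of 2.55 ± 0.20 or 5.84-fold, read by 1 probe. The 1 h array gave 2.48 and the 3 h array 3.55, and the levels were 2.47 with XVE alone and 2.52 with DMSO. Thus all 5 other arrays lay above the 0 h array, those without the construct or without estradiol included, and the 6 h array was the highest. Whether the probe also reads the construct's transcript was not tested.

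The gene farthest above 0 h was AT2G43620, at 2.61 at 6 h against -3.79 at 0 h, a difference of 6.40 ± 0.28 or 84.6-fold. It was also at 2.24 at 1 h, 2.22 at 3 h, 1.42 with XVE alone and 2.60 with DMSO, so it was low only on the 0 h array. NAC019, a transcription factor of stress responses, had the same form at 0.94 at 6 h and -3.63 at 0 h (4.57 ± 0.27), with -0.55 at 1 h, -0.61 at 3 h, 0.03 with XVE alone and 1.44 with DMSO. AT4G30650 (3.62), AT5G05600 (3.60), FAMT (3.41), which encodes a farnesoic acid methyltransferase, and IGMT5 (2.97), a methyltransferase gene of indole glucosinolates, were likewise above 0 h on each of the other arrays. Among genes read by several probes that were all at least 2-fold apart, CORI3, a coronatine-induced gene, was at 0.79 at 6 h against -2.17 at 0 h (2.95 ± 0.14).

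A second set of genes was high at 6 h and low at 0 h, 1 h and 3 h. AT1G56300 was at 2.42 at 6 h against -2.29 at 0 h (4.71 ± 0.16), with -4.86 at 1 h, -2.07 at 3 h, 2.11 with XVE alone and 2.16 with DMSO. RbcX1, a chaperone gene of rubisco assembly, was at 1.44 against -2.13 (3.57 ± 0.21), with -1.84 at 3 h and no signal well above background at 1 h. It was at 2.02 with XVE alone and 1.58 with DMSO, so all 3 arrays taken 6 h after a treatment were high. AT1G07050 was at 1.23 at 6 h, against -1.92 at 0 h, and its levels on the XVE and DMSO arrays, -0.63 and 0.09, lay between those of the pair. The clock genes PRR3, PRR5 and GRP7 had this form too and are described with the clock.

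On the lower side COL2, a CONSTANS-like zinc finger gene, was farthest: -3.15 at 6 h against 0.96 at 0 h, a difference of -4.11 ± 0.22. The 1 h and 3 h arrays gave 1.08 and 0.14, and XVE alone and DMSO -1.92 and -2.61, so the 3 arrays at 6 h were the low ones. AT2G27402 was at -2.17 at 6 h against 0.85 at 0 h, and all the other arrays were below 0 h as well, between -3.05 and -0.11. CSLG2, a cellulose synthase-like gene, was at -4.01 at 6 h and at -1.06 at 0 h (-2.95 ± 0.24), and at -4.09 or below on each other array. AT4G11590 (-2.92), SKIP4 (-2.46), an F-box gene, HEC2 (-2.73), a bHLH factor gene of gynoecium development, and AT1G13670 (-2.28) had levels between -5.02 and -3.65 at 6 h, near the dim end of the array. AT1G68440 was at -1.78 at 6 h against 0.68 at 0 h, and at 2.04 at 1 h. Genes whose several probes were all at least 2-fold lower included ACA1, an α-carbonic anhydrase gene (-1.99), RPT2, a phototropism gene (-1.95), and ABCG22, a transporter gene (-1.91). Under normexp the 30 genes named here as farthest kept their direction and stayed past 2-fold, but dim ones moved closer to 0, such as AT2G43620 (5.06), AT1G56300 (4.06), NAC019 (3.37), FAMT (2.77), AT5G05600 (2.68), IGMT5 (2.38), COL2 (-3.27), CSLG2 (-1.97), SKIP4 (-1.69), AT4G11590 (-1.68), HEC2 (-1.57) and AT1G13670 (-1.25). CORI3 differed by 2.32 under normexp, and keeping dim probes brought CSLG2 to -1.43 and AT1G07050 to 3.96.

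**Figure D2:**
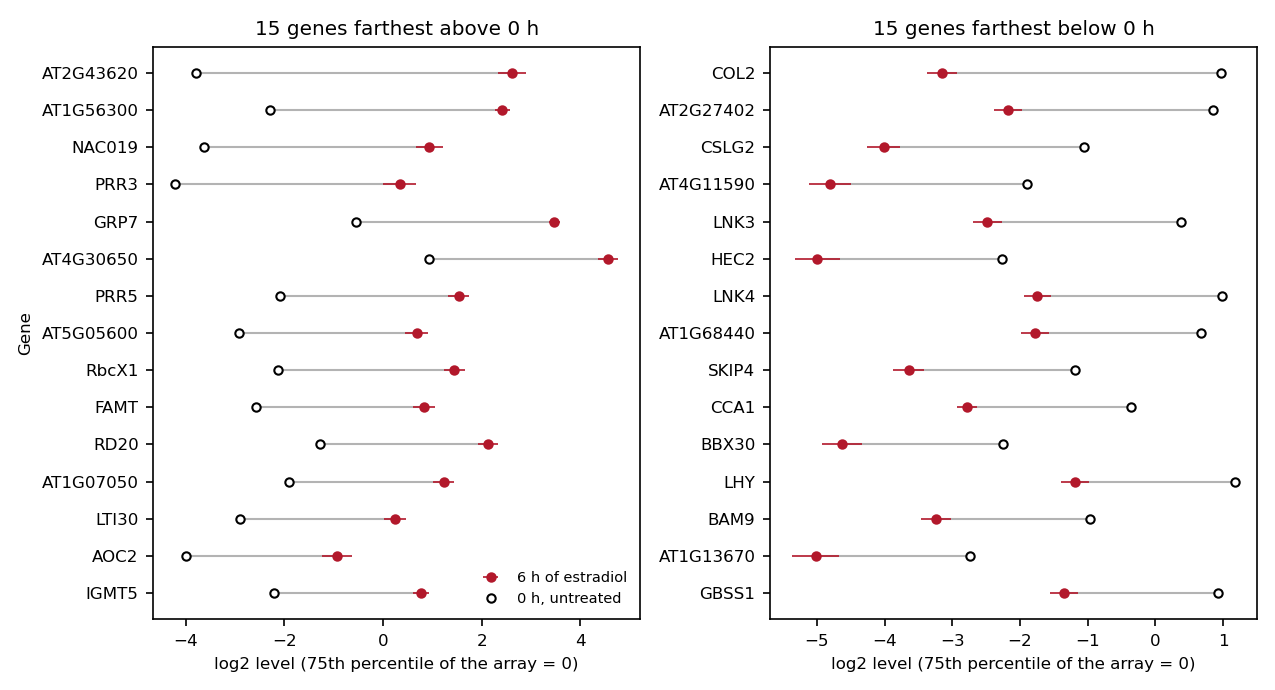
The 15 genes farthest above (left) and the 15 farthest below (right) 0 h, with the log2 level on the 6 h array and on the 0 h array joined by a line, and the software error of the difference as the bar at the 6 h point. The higher genes run from AT2G43620 (difference 6.40) to IGMT5 (2.97), and the lower ones from COL2 (-4.11) to GBSS1 (-2.28).

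Morning clock genes were lower at 6 h: 9 of the 13 compared were at least 2-fold lower and 0 higher, against 2.76% lower among all genes, and their median difference was -1.87. CCA1 was at -2.79 at 6 h against -0.36 at 0 h (-2.43 ± 0.15), with its 2 probes at -3.64 and -1.22. LHY, its close relative, was at -1.19 against 1.17 (-2.37 ± 0.20), with 2.86 at 1 h, 1.22 at 3 h, -1.98 with XVE alone and -1.70 with DMSO. LHY was thus above its 0 h level at 1 h, near it at 3 h and low on all 3 arrays at 6 h.

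The LNK genes encode transcriptional coactivators that act with RVE factors, and like LHY, LNK3 and LNK4 were highest at 1 h and below 0 h on all 3 arrays at 6 h. LNK3 was at -2.48 at 6 h against 0.37 at 0 h, with 1.31 at 1 h and 0.01 at 3 h. LNK4 was at -1.74 against 0.99, with 2.83 at 1 h and 1.01 at 3 h. LNK2 (-1.53) and LNK1 (-1.24) differed less, and the 2 probes of LNK2 stood at -2.53 and -0.53. Of the RVE genes, MYB relatives of CCA1, RVE1 (-2.15, and -2.85 with dim probes kept) and RVE8 (-1.87) were lower, RVE4 (-0.97) and RVE7 (-0.63) fell short of 2-fold, and AT5G52660 was at 0.06. PRR9, the first PRR gene of the day, was at -4.35 at 6 h against -2.31 at 0 h (-2.04 ± 0.27), while PRR7, which follows it, was at -1.31 and -1.22.

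Evening clock genes were higher: 10 of 14 compared were at least 2-fold higher and 0 lower, against 2.52% higher among all genes, with a median of 1.36. PRR3 was at 0.34 at 6 h and -4.21 at 0 h (4.55 ± 0.33), and was dim at 1 h and at -4.07 at 3 h. PRR5 was at 1.53 against -2.09 (3.62 ± 0.21), with -2.66 at 1 h, -2.26 at 3 h, 1.78 with XVE alone and 1.74 with DMSO. Both repressor genes were low on the 3 arrays up to 3 h and high on the 3 arrays at 6 h. Under normexp 9 of the 14 were at least 2-fold higher, and PRR3 differed by 2.92 and LUX, described next, by 2.06.

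GRP7, a clock-controlled RNA-binding protein gene, was at 3.47 at 6 h and -0.55 at 0 h (4.02 ± 0.12, 3 probes between 3.86 and 4.28). It was at -1.09 at 1 h, -0.57 at 3 h, 3.17 with XVE alone and 3.09 with DMSO. Its near-identical relative GRP8 differed by 1.33, and probe sequences that could separate the pair were not used here. LUX of the evening complex was at 0.26 at 6 h against -2.43 at 0 h, ELF3 at 0.83 against -0.49, and ELF4, dim at 0 h, was at least 3.14-fold higher. FKF1, a blue light receptor of day length timing, was at 0.06 against -2.49 (2.54 ± 0.22).

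TOC1, the evening repressor of CCA1 and LHY, was at 1.01 at 6 h and -0.39 at 0 h (1.40 ± 0.20), and the other arrays lay between -0.71 and 0.13. JMJD5, a jumonji-domain gene tied to the clock, was at 0.82 against -0.87, and the other arrays lay at -1.38 or below. For these genes the 6 h estradiol array was thus the highest of all, with the XVE and DMSO arrays nearer to 0 h. GI, a partner of FKF1, was counted as higher by its mean of 1.03, but its 2 probes disagreed, at 0.12 and 1.94. BOA (0.84), ZTL (0.12), LKP2 (-0.43) and CHE (-0.59) were less than 2-fold apart. COR27, a cold-regulated gene counted with the evening genes and dim at 0 h, 1 h and 3 h, was at least 17.3-fold higher at 6 h.

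**Figure D3:**
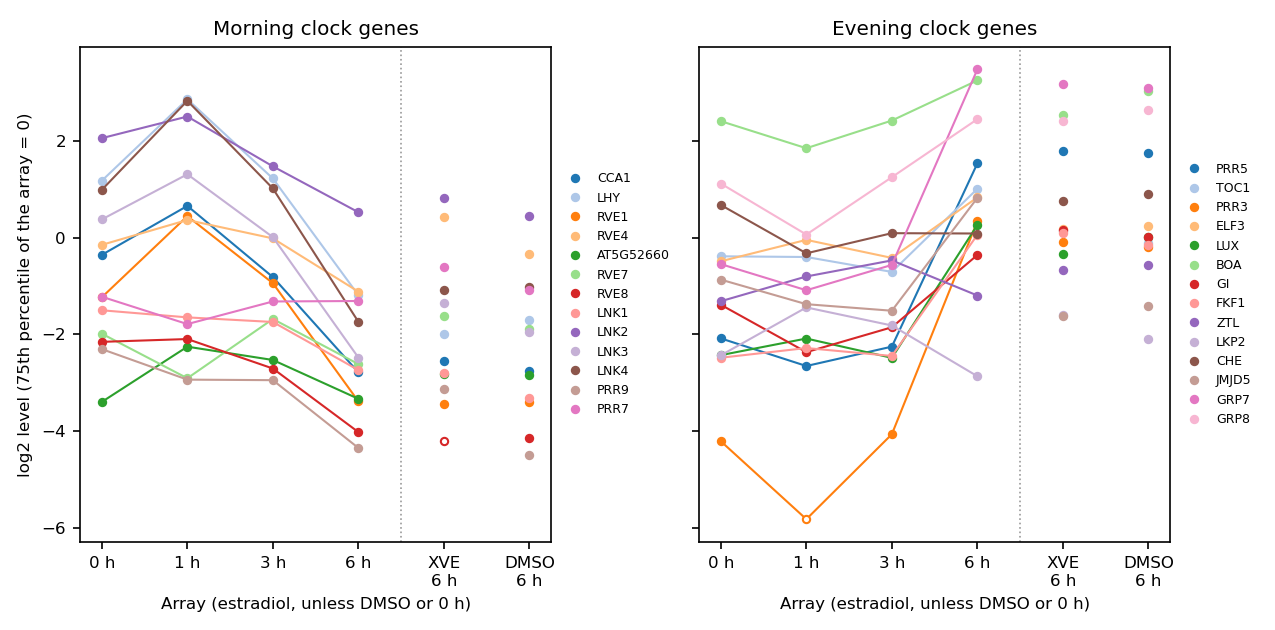
Log2 levels of morning and evening clock genes on the 4 arrays of the slide at 0, 1, 3 and 6 h of estradiol, joined by lines, with the XVE and DMSO arrays at 6 h as separate marks, and open marks for levels not well above background. Morning genes such as LHY lie at -1.19 at 6 h against 1.17 at 0 h, and evening genes such as PRR5 at 1.53 against -2.09.

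Of 18 light and photoperiod regulators 8 were at least 2-fold lower, against 2.76% of all genes, and 0 higher, with a median of -0.97. Besides COL2, its relative COL1 was at -3.14 at 6 h against -1.10 at 0 h, with 0.89 at 1 h. The B-box gene BBX30 (-2.38) and the cycling DOF factor genes CDF2 (-1.52) and CDF1 (-1.07), which encode repressors of CONSTANS, were lower as well. BBX25 was at 0.39 at 6 h, against 1.76 at 0 h. HYH, a bZIP relative of HY5, was at -0.05 and 1.24, while HY5 itself differed by -0.48. The other called genes of the list were below 0 h on the XVE and DMSO arrays too, but BBX28 was not. BBX28 had a level of -1.66 at 6 h, against 0.07 at 0 h (-1.73 ± 0.21), and of 0.42 with XVE alone and 0.10 with DMSO. Both dim at 6 h, BBX31 was lower by at least 5.46-fold and ELIP2 by at least 3.18-fold. PIF3, a phytochrome-interacting factor gene, was at the top of the list with 0.40. Under normexp COL1 was at -1.46, BBX30 at -1.32 and CDF2 at -0.95.

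Of 20 starch breakdown genes compared, 8 were higher and 2 lower by at least 2-fold, against 2.52% and 2.76% of all genes, with a median of 0.79. SEX1, the glucan water dikinase that phosphorylates starch to open it for attack, was at 2.25 at 6 h against 0.42 at 0 h (1.83 ± 0.20). PWD, the second dikinase, was at -0.08 against -1.41. ISA3, a debranching enzyme gene, was at -0.25 against -2.47 (2.22 ± 0.22), with -3.55 at 1 h, -2.05 at 3 h, -0.41 with XVE alone and -0.31 with DMSO. Like PRR5 and GRP7, ISA3 was lowest at 1 h and high on all 3 arrays at 6 h.

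The glucan phosphorylase genes PHS1 (1.73), of the plastid, and PHS2 (1.80), of the cytosol, were higher, as was DPE1, the plastid disproportionating enzyme (1.06). The cytosolic DPE2 (0.75), the phosphatase gene SEX4 (0.88) and the debranching enzyme gene LDA (0.83) fell short of 2-fold. The β-amylase genes, whose active products release maltose, went different ways. BAM5 was at 0.77 at 6 h and -0.91 at 0 h (1.68 ± 0.15), and was highest at 3 h, at 1.35. BAM9, whose product lacks catalytic activity, was at -3.25 against -0.96 (-2.29 ± 0.22), with 1.05 at 1 h, and BAM2 was lower by a difference of -1.05. BAM1 (-0.13) and BAM3 (-0.10), the main active plastid forms of leaves, and BAM4 (0.29) stayed within 2-fold. AMY3, described above, had the largest difference of the list.

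Of 15 starch synthesis genes 2 were higher and 1 lower by at least 2-fold (median 0.04), against 2.52% and 2.76% of all genes. GBSS1, the granule-bound synthase that makes amylose, was at -1.35 at 6 h, against 0.93 at 0 h (-2.28 ± 0.21). The 1 h and 3 h arrays gave 2.32 and 0.69, and XVE alone and DMSO -1.54 and -1.16. GBSS1 was thus highest at 1 h and low on all 3 arrays at 6 h, as LHY was. SS4, a synthase of granule initiation, was at 1.56 against 0.43, and the branching enzyme gene SBE2.1 at -0.45 against -1.48, which under normexp became a difference of 0.75. The ADP-glucose pyrophosphorylase genes ADG1 (-0.10), APL1 (-0.51), APL2 (0.30), APL3 (0.58) and APL4 (0.41) were less than 2-fold apart. Of 11 sugar starvation genes compared none was 2-fold apart, and their median was -0.07, although it was 1.04 above 0 h at 1 h.

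**Figure D4:**
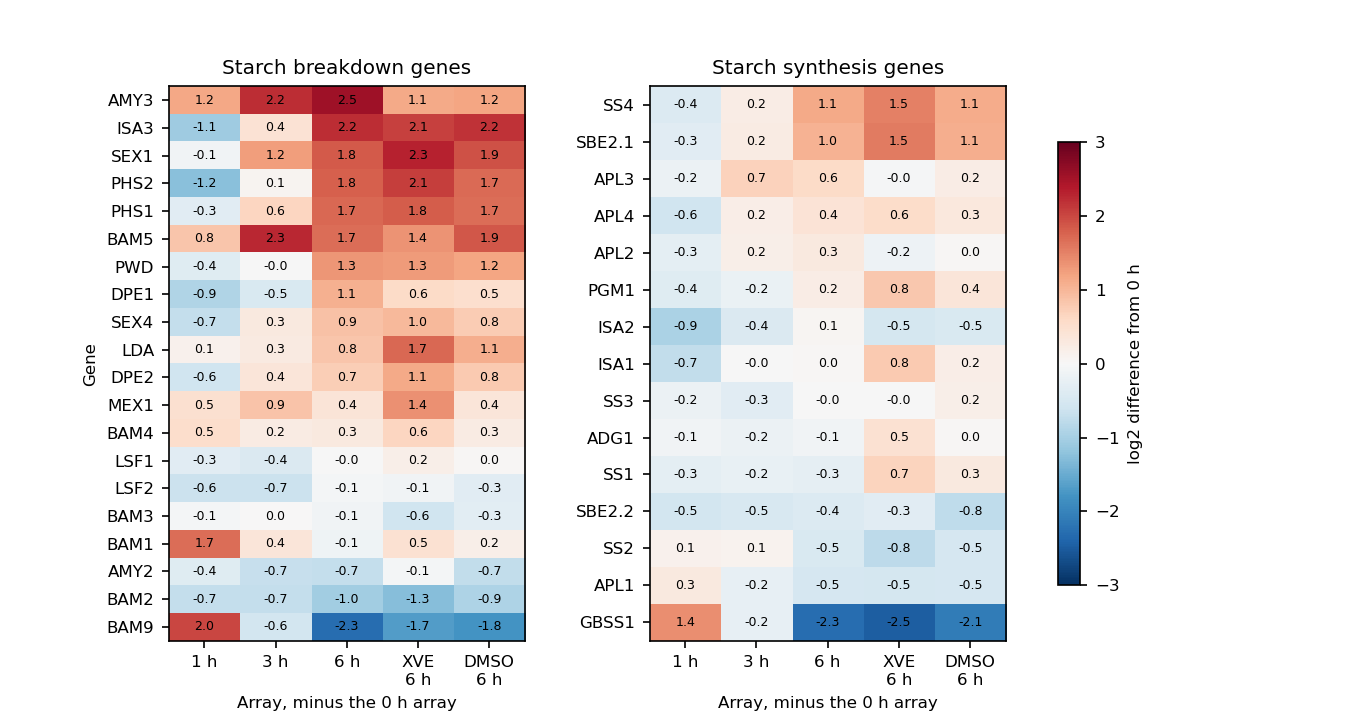
Difference from 0 h (log2) of each starch breakdown gene (left) and starch synthesis gene (right), by array, on a colour scale centred at 0. AMY3 (2.55 at 6 h), ISA3 (2.22) and BAM9 (-2.29) lead the breakdown genes, and GBSS1 (-2.28) the synthesis genes.

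All 18 photosynthesis genes compared were below 0, with a median of -0.44, against -0.06 over all genes. The share of all genes below 0 was not counted. Only RCA, the rubisco activase gene, reached 2-fold, where 2.76% of all genes were lower. RCA was at 2.27 at 6 h against 3.31 at 0 h (-1.04 ± 0.07 over 9 probes, between -1.42 and -0.63), with 3.89 at 1 h, 3.36 at 3 h, 4.71 with XVE alone and 3.28 with DMSO. The Calvin cycle genes FBA1 (-0.95) and SBPASE (-0.92) and the light-harvesting genes LHCA4 (-0.67) and LHCB3 (-0.66) came next, and PSAF was at -0.02. The list's median was 0.05 above 0 h at 3 h and 1.14 above it on the XVE array, so the 6 h estradiol array was the low one here. Quantile scaling moved the median to -0.23 and RCA to -0.94, and cyclic loess scaling gave -0.25 and -0.94. RCA also fell short of 2-fold under normexp (-0.97) and by its brightest probe (-0.96). Members of the light-harvesting and rubisco small subunit families share long stretches of sequence, so single members are uncertain.

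Chlorophyll biosynthesis genes had a median of -0.29, with 2 of 13 higher, against 2.52% of all genes, and 0 lower. PORB, a light-dependent protochlorophyllide oxidoreductase gene, was at 2.75 at 6 h and 1.46 at 0 h, with 0.11 at 1 h, and PORA, its close relative, was at -1.46 and -2.60. CRD1 (-0.92), CHLH (-0.68) and HEMA1 (-0.63) were the lowest of the rest. Both POR calls depend on the choice of probe: with the brightest probe of each gene PORB was at 0.65 and PORA at 0.56.

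Of 10 flavonoid genes 5 were at least 2-fold lower, against 2.76% of all genes. All 10 were below 0, and the median was -1.06, against -0.06 over all genes. F3H, flavanone 3-hydroxylase, was at -1.80 at 6 h against 0.43 at 0 h (-2.23 ± 0.15), with -0.15 at 1 h, 0.63 at 3 h, -2.69 with XVE alone and -1.21 with DMSO. TT7, the flavonoid 3′-hydroxylase (-1.46), DFR, dihydroflavonol reductase (-1.40), CHS, chalcone synthase at the entry of the pathway (-1.27), and LDOX of anthocyanin synthesis (-1.22) followed. FLS1, flavonol synthase, was at -0.91, and the regulators PAP1 (-0.64) and TT8 (-0.29) were within 2-fold. MYB11, a regulator of flavonol synthesis, had a level of -1.94 at 0 h and was dim on all 5 other arrays, at least 9.19-fold lower at 6 h. The list as a whole was low on the XVE and DMSO arrays too, with medians relative to 0 h of -2.09 and -1.44. Its median was -0.65 at 1 h and near 0 h at 3 h (0.09). Under normexp LDOX was at -0.95.

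Jasmonate genes were above 0 h at 6 h in part. Of 13 biosynthesis genes 3 were higher and 0 lower by at least 2-fold (median 0.41), and of 15 response genes 5 were higher and 0 lower (median 0.66), where 2.52% of all genes were higher. Relative to 0 h, the biosynthesis median was 1.44 at 1 h, 0.66 at 3 h, 0.89 with XVE alone and 0.51 with DMSO. That of the response genes was 1.64, 0.91, 1.24 and 1.00 on these arrays. Both medians were thus above 0 h on every other array, and smallest on the 6 h estradiol array. LOX2, a chloroplast lipoxygenase gene of the pathway, was at 0.85 at 6 h against -1.87 at 0 h (2.73 ± 0.13 over 4 probes), with 0.27 at 1 h, 0.66 at 3 h, 1.11 with XVE alone and 0.90 with DMSO. AOC2, an allene oxide cyclase gene, was at -0.94 against -4.01 (3.07 ± 0.31), with 0.03 at 1 h and -0.55 at 3 h. AOC1 was at -1.57 and -2.74. The AOC genes are near copies of one another, so which member was read is uncertain, and under normexp the differences were 1.72 for AOC2, 0.70 for AOC1 and 2.07 for LOX2. By its brightest probe AOC1 differed by 1.82. AOS (0.54), which makes their substrate, OPR3 (-0.03) and the other lipoxygenase genes of the list, LOX3 (-0.64), LOX4 (0.41) and LOX6 (-0.01), were within 2-fold.

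VSP1 and VSP2, vegetative storage proteins of late jasmonate responses, were higher at 6 h. VSP1 was at 1.93 at 6 h and -0.71 at 0 h (2.64 ± 0.10 over 4 probes), with -0.50 at 1 h, 1.26 at 3 h, 1.42 with XVE alone and 2.25 with DMSO. VSP2 was at 2.80 against 0.56. VSP1 was thus near its 0 h level at 1 h and high at 3 h and on all 3 arrays at 6 h, but the pair are near copies, and a probe may read both. The repressor genes JAZ9 (3.12 at 6 h, 1.90 at 0 h), JAZ1 (2.33 and 1.13) and JAZ12 (1.59 and 0.53) were higher. Each stood higher still at 1 h, at 4.58, 2.91 and 2.02. JAZ7 (-0.37), JAZ8 (-0.24) and MYC2 (-0.02), the transcription factor that JAZ proteins bind, were within 2-fold. NATA1, an ornithine N-acetyltransferase gene that jasmonate induces, was dim at 0 h and at least 49.6-fold higher at 6 h, the largest bound of all genes.

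Of 17 abscisic acid and cold genes 8 were higher and 0 lower by at least 2-fold (median 0.96), against 2.52% and 2.76% of all genes. RD20, a caleosin gene, was at 2.13 at 6 h and -1.28 at 0 h (3.41 ± 0.21), with 2.68 at 1 h, 1.87 at 3 h, 0.40 with XVE alone and 1.55 with DMSO. The dehydrin gene LTI30 was at 0.24 against -2.90 (3.15 ± 0.23), and was highest at 1 h, at 2.52. Both were above 0 h on every other array and lowest of the rest on the XVE array. COR15B (2.55), a chloroplast stromal protein gene of cold acclimation, KIN2 (2.44), KIN1 (2.19), RD26 (1.12), a NAC factor gene, and ABI1 (1.96), a phosphatase that represses abscisic acid signalling, were higher too. RD29A was at 0.64 at 6 h and -1.13 at 0 h (1.77 ± 0.17), and at -0.93 with XVE alone and -0.33 with DMSO, closer to 0 h. RAB18 (0.67), ABI2 (0.67), COR15A (0.96), COR47 (-0.07) and RD29B (-0.01) were within 2-fold, and HAI2, a phosphatase gene dim at 0 h, was at least 3.63-fold higher. KIN1 and KIN2 are near copies. LTI30 differed by 2.33 under normexp, and KIN1 by 2.99 by its brightest probe.

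Of 18 early touch and wound genes 4 were at least 2-fold lower, against 2.76% of all genes and 2 under normexp, and 0 higher, with a median of -0.31. ERF5, an ethylene response factor gene, was at -1.57 at 6 h against -0.19 at 0 h (-1.38 ± 0.21), with -1.32 at 1 h, -1.88 at 3 h, 0.02 with XVE alone and -0.85 with DMSO. CBF2, a cold response factor gene (-1.18), CML38, a calmodulin-like gene (-1.14), and ERF6 (-1.02) were lower as well. The 2 probes of ERF6 were at -1.90 and -0.14, and under normexp CBF2 was at -0.99 and ERF6 at -0.76. TCH4 (-0.88), ZAT10 (-0.33), WRKY33 (-0.44) and WRKY40 (-0.09) were within 2-fold, and the list was above 0 h by a median of 0.52 with XVE alone and 0.43 with DMSO. Of 11 salicylate and defence genes only PR2, a β-glucanase gene, was 2-fold apart, where 2.52% of all genes were higher. PR2 was at -1.80 at 6 h and -3.71 at 0 h, and under normexp its difference was 0.92. WRKY54, dim at 0 h, was at least 4.85-fold higher.

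Flowering regulators had a median of -0.30, with 3 of 16 lower, against 2.76% of all genes, and 0 higher. RAV2, a repressor of flowering, was at -1.03 at 6 h and 0.38 at 0 h (-1.41 ± 0.12 over 3 probes), with 1.27 at 1 h, 0.27 at 3 h, 0.85 with XVE alone and 0.55 with DMSO, so it was low on the 6 h estradiol array alone. AGL24, an activator of flowering, was at 2.02 against 3.13, and TSF, a relative of FT, at -4.51 against -3.50, a difference that normexp brought to -0.64. SOC1 (0.62), FLC (-0.17), SVP (-0.26) and AP1 (-0.35) were within 2-fold. Among 6 floral organ genes CRC, a YABBY factor gene of carpels and nectaries, was at 0.35 at 6 h and -1.95 at 0 h (2.30 ± 0.21), with -0.94 at 1 h, -1.21 at 3 h, -3.45 with XVE alone and -2.36 with DMSO. It was highest on the 6 h array, followed by the other estradiol arrays of AMY3C-EY plants. SPT (1.20) and STK (-1.36) rested on dim signals, and under normexp they were at 0.07 and -0.78.

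Genes of the apex itself were mostly within 2-fold, as were most genes compared, of which 2.52% were higher and 2.76% lower. None of 12 shoot meristem regulators was 2-fold apart (median -0.03): the stem cell peptide gene CLV3 was at 0.34, its receptor gene CLV1 at 0.34, STM at -0.61, KNAT6 at -0.74 and ATML1 at -0.89. None of 16 DNA replication genes was 2-fold apart, with a median of -0.04 and MCM2 at -0.03, although its median relative to 0 h was -0.94 at 1 h. Mitosis genes had a median of -0.38, with the cyclin gene CYCB1;4 lower (-1.04) and CYCB1;1 at -0.75. In the type-A cytokinin response regulators ARR8 alone was lower, at -0.16 at 6 h and 1.19 at 0 h (-1.34 ± 0.20). Auxin response genes (median -0.07), gibberellin oxidases (-0.39) and ethylene genes (0.09) had no member 2-fold apart.

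Of the stomatal lineage genes FAMA, a factor of guard cell fate, was lower (-1.11), and of the trichome genes TRY, an inhibitor of trichome fate (-1.14), the other members of both lists being within 2-fold. Under normexp both were, at -0.71 and -0.93, and CYCB1;4 was at -0.85. LAP5, a pollen wall synthase gene, was at 0.11 at 6 h and -1.19 at 0 h. Heat shock genes had a median of -0.34, with HSFB2A lower (-1.06, and -0.99 under quantile scaling), glutathione transferase genes one of 0.32 with none 2-fold apart, vascular genes one of 0.14 and root genes one of -0.03. Reference genes had a median of -0.09, with GAPC2 (-0.93) the farthest from 0, and AT4G34270, UBC21 and PP2AA3 at 0.38, 0.27 and 0.20. In all, 389 of 460 list genes were compared, of which 42 were higher and 39 lower, against 2.52% and 2.76% of all genes. The lists were chosen with earlier results of these data known, so their totals do not stand for genes picked blindly.

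**Figure D5:**
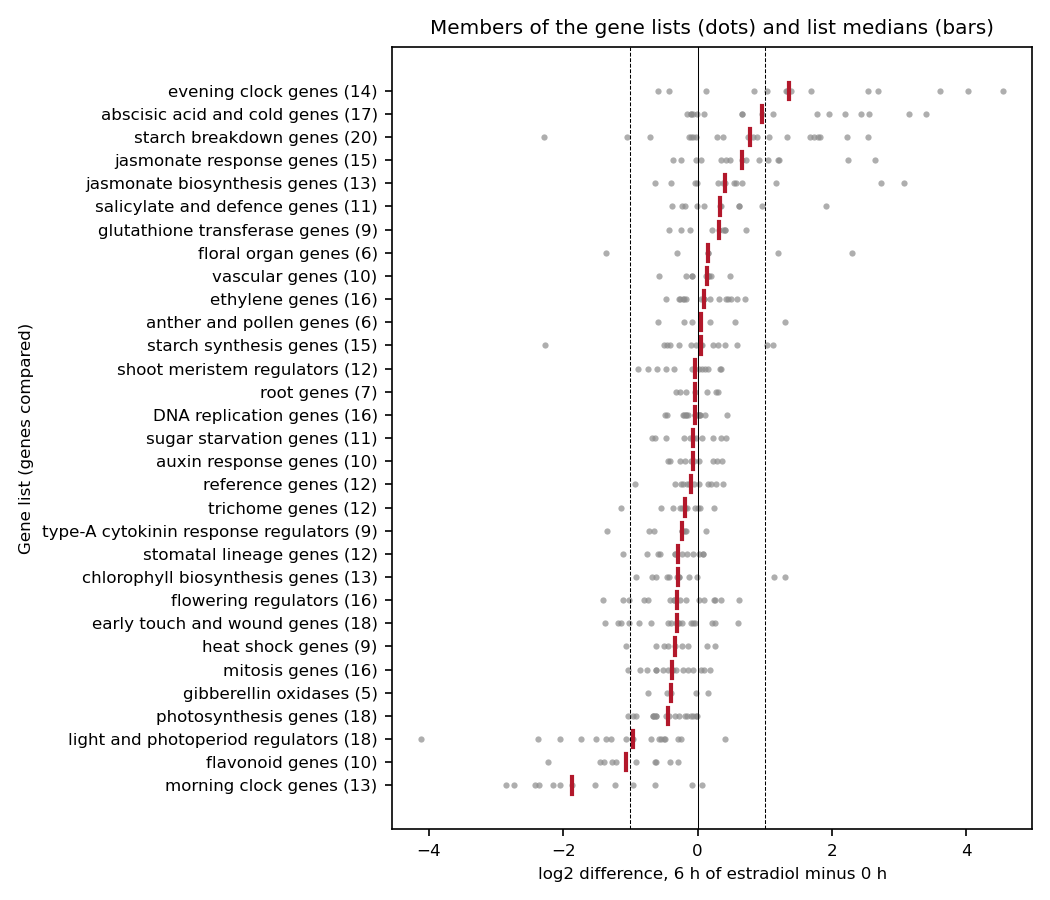
Difference between 6 h and 0 h (log2) of each compared member of the 31 gene lists, with the list median as a bar and dashed lines at 2-fold. Morning clock genes (median -1.87) and evening clock genes (1.36) lie at the ends, and reference genes at -0.09.

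Genes dim on 1 array of the pair have only a bound, the bright level against the higher of the dim level and the lowest level well above background on that array, which was -5.14 at 6 h and -4.35 at 0 h. Of 1169 genes dim at 0 h alone, 92 were at least 2-fold higher at 6 h by this bound and 29 at least 4-fold. Of 220 dim at 6 h alone, 160 were at least 2-fold lower and 37 at least 4-fold. The limit of -4.35 at 0 h lay above that of -5.14 at 6 h. More genes could thus be dim at 0 h alone, and the bound was harder to pass on the higher side. The counts of the higher and lower sides therefore cannot be compared with each other. After NATA1 the largest bound on the higher side was that of RNS1, a ribonuclease gene of phosphate starvation and wounding, at 0.21 at 6 h and at least 23.7-fold higher. On the lower side followed LBD28, a LOB domain gene, by at least 8.56-fold, and ESE1, an ethylene response factor gene, by at least 8.41-fold, and like MYB11 they were low on all arrays but the 0 h one.

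For the 484 higher genes the median was 0.58 above 0 h at 1 h, 0.71 at 3 h and 1.34 at 6 h, and it was 1.32 with XVE alone and 1.36 with DMSO. For the 531 lower genes the medians were -0.80, -0.93 and -1.20 at the same times, with -1.25 for XVE alone and -0.98 for DMSO. All these comparisons share the 0 h array, so they are not independent of one another. A pair that shares no array with the 6 h and 0 h pair was DMSO at 6 h against estradiol at 3 h, on different slides, where 848 of 19291 genes (4.4%) were higher in DMSO by 2-fold or more and 273 (1.42%) lower. At 4-fold these counts were 159 (0.824%) and 13 (0.0674%).

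Of the higher genes, 478 were also compared in that pair, and 141 (29.5%) were at least 2-fold higher with DMSO at 6 h and 8 (1.67%) lower; the 141 made up 18.6% of the 760 genes higher there. Of 455 lower genes, 66 (14.5%) were at least 2-fold lower and 34 (7.47%) higher, and the 66 made up 24.7% of 267. The medians in that pair were 0.51 for the higher and -0.16 for the lower genes, and 0.01 for all 18761 genes in both. By list, the evening clock genes had a median of 1.36 at 6 h over 0 h and 1.101 in that pair, and the morning clock genes -1.87 and -1.43. Flavonoid genes had -1.06 and -1.75, and starch breakdown genes 0.79 and 0.38. Both clock lists thus kept the sign of their median without the 0 h array, and so did the flavonoid and starch breakdown lists. The lists were chosen with earlier results of these data known, so that pair is no independent check of them. The abscisic acid and cold genes had 0.96 at 6 h over 0 h and -0.16 in that pair, and the jasmonate response genes 0.66 and 0.19. For single genes the DMSO minus 3 h difference was 4.00 for PRR5, 3.66 for GRP7, -2.92 for LHY, -2.75 for COL2 and -1.02 for AMY3. AT2G43620 was at 0.38 and CRC at -1.15.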

How the data were processed

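Total RNA of shoot apices was labelled with 1 dye and read on 6 Agilent arrays. Per the file headers, the processed intensity in the scanner files deposited by the authors is background-subtracted and detrended within the array; the submitters' processing notes name Agilent Feature Extraction 10.5.1.1. The authors' deposited value table holds log2 values with no stated scale. Set against the scanner files, 99.9% of its probes on each array matched log2 processed intensity, less the array's 75th percentile, to within 0.01 of a constant, which fixes scale, centring and direction. The median of the column was -2.08 at 0 h, -2.12 at 1 h, -2.14 at 3 h and -2.11 at 6 h, and -2.08 for XVE alone and -2.14 for DMSO. The 75th percentile of intensity was 810.9 at 6 h and 555.1 at 0 h, and between 341.6 and 1435.4 over all arrays. No spot was saturated. The number of arrays limits the precision.

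Flags in the deposited scanner files, the other kind of value used, chose the probes well above background on both arrays. Probes were named through accessions in a RefSeq gene table (TAIR10.1, for names only): 34285 matched 1 locus and 9318 none. Probes of the same gene were averaged. Of 19 probes printed 5 times, the median SD of log2 signal over spots was 0.13 at 6 h and 0.20 at 0 h. Named genes comprise the 15 farthest each way, the 5 farthest with every probe past 2-fold, the 3 largest bounds each way, the 5 farthest each way that also pass 2-fold in the pair sharing no array, AMY3, and members of 31 lists of 460 genes. These lists and genes were chosen with earlier results of these data known. Alternatives were array median, quantile and cyclic loess scaling, normexp with an offset of 50, other probe filters, and the brightest probe. Python 3.11.15, R 4.3.3 and limma 3.58.1 were used; the counting was tested on simulated data. Promoter sequences were not used here, so the planned motif shares were not run.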

Additional observations from a re-analysis of the deposited data

How the results depend on the processing

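With 1 array per group no replicate could be left out. No paired analysis was possible either, for the same reason. The planned motif shares were not run. Against 484 genes higher and 531 lower, the normexp correction gave 257 and 222, and keeping dim probes gave 990 and 1259; by probes these settings gave 450 and 434, and 1881 and 2403. The share of calls that were higher was 47.7%, and 44.0% to 55.8% over the alternatives, which turns the balance to the higher side with array median (510 and 481), quantile (545 and 498) and cyclic loess scaling (501 and 462), normexp and the filter on all 6 arrays (473 and 375). Under normexp the list medians were -1.21 (morning clock), 0.54 (starch breakdown), -0.83 (flavonoid), -0.28 (meristem) and 0.047 (glutathione transferase), and the sign turned for salicylate and defence (-0.13, against 0.34), floral organ (-0.15, against 0.16), vascular (-0.092, against 0.14), anther and pollen (-0.14, against 0.05), starch synthesis (-0.04, against 0.04) and ethylene genes (-0.02, against 0.09). Quantile scaling gave -0.23 for photosynthesis, no filter 1.69 for the evening clock and -0.39 for anther and pollen genes, and the brightest probe 0.12 for salicylate and defence. Medians near 0 also changed sign with the brightest probe (meristem 0.04, anther and pollen -0.08) and quantile scaling (root 0.01). The cause of these shifts was not tested. Of 80 named genes past 2-fold, 15 fell short under normexp and at most 4 under any other setting run. None of these 80 changed sign where it was compared, which under the filter on all 6 arrays was 67 of them. The other called genes were not checked for sign. Signal over background limits dim genes most: the median software error was 0.24 for the 4808 dimmest genes and 0.20 for the brightest.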
